A study of Mus musculus with 19 samples.

Results

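The genes described are 9 members of the interferon system, chosen by name for their roles, of 35598 genes quantified in cultured mouse muscle cells. They are the receptor chains Ifnar1 and Ifngr1, the signalling and transcription factors Stat2, Irf9 and Irf1, and the response genes Ifi204, Ifit1, Ifit3 and Isg15. RNA was sequenced from 19 libraries of primary myoblasts, the muscle precursor cells, taken from mouse hind limbs and kept in culture. Wild-type (WT) cells were sampled as proliferating myoblasts in growth medium at 24 h (3 libraries), as differentiated myotubes at 48 h (3 libraries) and as fused myotubes at 72 h (4 libraries). Cells labelled Glud1KO, deficient in the mitochondrial glutamate dehydrogenase gene Glud1, were sampled at the same 3 stages (3, 2 and 4 libraries). The comparison of labels addresses the series' question of how Glud1 bears on the fate of muscle stem cells, and that of stages follows differentiation. The allele, the way it was deleted, and the strain, age and sex of the mice are not given in the sources used here. Nor do the labels say whether the numbered biological replicates are separate animals or separate cultures, so p-values measure the spread between these libraries.

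Interferons are secreted proteins that tell cells of infection. Type I interferons (alpha and beta) bind a receptor made of Ifnar1 and Ifnar2 and, through the kinases Jak1 and Tyk2, bring Stat2 and Irf9 into a complex that binds interferon-stimulated response elements. Interferon gamma binds Ifngr1 and Ifngr2 and acts on genes with gamma-activated sites, of which Irf1 is a classic target. Ifit1, Ifit3 and Isg15 are among the genes that type I interferon raises most in many cell types, and cells keep a low basal level of the pathway without added interferon.

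Promoter sequences are shown for the members that hold a match to one of those elements within the bases printed. Ifi204, the response gene with more counts, had no sequence to search, so matches and counts could not be compared among the response genes. Windows of 300 bases around RefSeq start sites (assembly GRCm38.p6, 250 bases before the start and 50 after) were found for 8 of the 9 members, with Ifi204 the gene without one. The core of the interferon-stimulated response element (GAAA, any 2 bases, GAAA) and the gamma-activated site (TTC, any 3 bases, GAA) were searched on both strands. The first was in 3.44% and the second in 8.3% of all 32851 windows of that length in the table. Each line below gives the 220 bases from -250 to -31 relative to the start, 5′ to 3′ on the strand of the gene and upstream of it, with the match in capitals. Stat2 is shown from chr10:128270248-128270467 (plus strand), Irf1 from chr11:53769764-53769983 (plus strand), Ifit1 from chr19:34640639-34640858 (plus strand), Ifit3 from chr19:34583279-34583498 (plus strand) and Isg15 from chr4:156200849-156201068 (minus strand).
Stat2: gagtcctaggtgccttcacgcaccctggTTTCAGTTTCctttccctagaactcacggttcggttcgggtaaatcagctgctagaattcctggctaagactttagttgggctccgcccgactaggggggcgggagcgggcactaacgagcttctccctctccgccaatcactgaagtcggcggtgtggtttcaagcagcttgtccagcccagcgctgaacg
Irf1: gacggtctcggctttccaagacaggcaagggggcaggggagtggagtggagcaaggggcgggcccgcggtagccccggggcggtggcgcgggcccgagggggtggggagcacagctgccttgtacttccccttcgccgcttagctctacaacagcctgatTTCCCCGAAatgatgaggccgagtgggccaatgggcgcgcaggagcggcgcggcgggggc
Ifit1: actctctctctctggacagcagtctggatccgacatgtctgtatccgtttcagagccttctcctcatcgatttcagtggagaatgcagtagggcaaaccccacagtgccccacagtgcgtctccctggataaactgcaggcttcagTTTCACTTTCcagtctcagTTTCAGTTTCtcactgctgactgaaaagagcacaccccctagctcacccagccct
Ifit3: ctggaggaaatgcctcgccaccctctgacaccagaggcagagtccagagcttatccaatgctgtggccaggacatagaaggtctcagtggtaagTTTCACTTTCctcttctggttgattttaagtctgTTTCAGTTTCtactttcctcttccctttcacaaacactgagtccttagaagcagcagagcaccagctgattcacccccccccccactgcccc
Isg15: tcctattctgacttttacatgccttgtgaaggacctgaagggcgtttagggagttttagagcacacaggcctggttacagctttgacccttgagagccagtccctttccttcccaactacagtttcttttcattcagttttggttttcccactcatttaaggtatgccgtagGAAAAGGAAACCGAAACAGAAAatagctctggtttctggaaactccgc
Ifit1 and Ifit3 each held 2 matches to the response element, Stat2 held 1, and Isg15 held 3 that overlap in 1 run. In Stat2, Ifit1 and Ifit3 the capitals are the reverse complement of the core, and in Isg15 they read in the direction of the gene. The capitals in Irf1 mark a gamma-activated site in 1 of its 2 windows, and the Ifnar1 window also held 1, at position -5, outside the stretch that is printed for other genes. No match was found in the windows of Irf9 and Ifngr1, which says only that these letters are not there. A match is a run of letters and not a measured binding site.

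Libraries held 16168131 to 30742634 estimated counts, and 15123 genes passed the filter on low counts and were tested. The 7 myogenic markers examined were each at 1 CPM (read counts scaled to the TMM-corrected size of the library) or more in every library. Their sum was lower under Glud1KO in myoblasts (1864 to 2037 CPM in WT, 1614 to 1682 under Glud1KO) and fused myotubes (20068 to 22012 and 19191 to 19794). It overlapped in differentiated myotubes (21202 to 24756 and 21396 to 23482). Among 8 macrophage and leukocyte markers, the summed level was 1.57 to 28.2 CPM. The sum overlapped between the labels in myoblasts (1.79 to 2.14 CPM in WT, 1.57 to 2.09 under Glud1KO) and fused myotubes (8.68 to 10.4 and 8.91 to 9.56) and was higher under Glud1KO in differentiated myotubes (15.7 to 18.8 and 24.6 to 28.2). It was carried in myotubes by Itgam, at 15.8 ± 1.35 CPM (SD, n = 3) in WT and 25.4 ± 2.57 CPM (SD, n = 2) in Glud1KO-labelled differentiated myotubes, whereas the other 7 summed to 0.759 to 1.44 CPM in the former and 1.02 to 1.10 CPM in the latter. Of these, Tyrobp was at 0 in all libraries and Adgre1 in all myoblast libraries, and apart from Cd68 none exceeded 0.327 CPM in a library. Fibroblast markers (6 genes) summed to less under Glud1KO at each stage, at 4.61 to 5.66 against 7.81 to 8.62 CPM, 0.909 to 1.15 against 1.26 to 2.32 CPM, and 2.43 to 3.4 against 3.27 to 3.97 CPM, the last of these overlapping. Not all of them moved with the sum. In myoblasts 2 of the 6 were at 1 CPM or more in every Glud1KO-labelled library and 1 in every WT library. Lum was at 0 in all WT myoblast libraries but not in all Glud1KO-labelled ones. Of the other lists, 4 markers of endothelium summed to under 2 CPM, 4 of T and NK cells to at most 0.472 CPM, and 2 of plasmacytoid dendritic cells to 3.14 to 11.2 CPM, most of it Bst2, which is itself an interferon response gene. The part of such cells in the results was not tested. Glud1 itself did not separate the labels by counts: it stood at 184 to 192 CPM in WT and 185 to 190 CPM in Glud1KO-labelled myoblasts, and the ranges also overlapped at both later stages. Its TPM (a transcript level per length and library) was lower under the Glud1KO label, at 139 against 169 in myoblasts, 61.7 against 83.8 in differentiated myotubes and 79.4 against 102 in fused myotubes. In the file names both groups carry the letters KO, unlike in the labels, so each direction between labels below is that of libraries labelled Glud1KO against libraries labelled WT. In such bulk libraries, fewer cells of a type and less RNA per cell cannot be told apart.

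Per length, the members spanned a wide range in WT myoblasts. Ifngr1 (30.9 ± 1.22 TPM; SD, n = 3) and Ifnar1 (30.2 ± 4.03 TPM) led and did not differ beyond their spread. Ifi204 (23.4 ± 1.13 TPM), Irf1 (10.3 ± 1.5 TPM), Stat2 (5.16 ± 0.493 TPM) and Irf9 (2.66 ± 0.329 TPM) followed, each below its neighbour by more than the spread. Isg15 (0.823 ± 0.211 TPM), Ifit3 (0.472 ± 0.246 TPM) and Ifit1 (0.317 ± 0.0768 TPM) came last, and the ranges of Isg15 and Ifit3, and of Ifit3 and Ifit1, overlapped. In WT differentiated myotubes the order changed: Stat2 (15.8 ± 0.607 TPM) and Ifi204 (14.5 ± 0.235 TPM) stood above Ifnar1 (10.8 ± 0.343 TPM) and Ifngr1 (9.30 ± 0.395 TPM), and Irf9 (2.36 ± 0.205 TPM) and Irf1 (2.24 ± 0.181 TPM) did not differ beyond their spread. In WT fused myotubes Ifngr1 (10.3 ± 0.536 TPM) and Ifnar1 (10.1 ± 1.78 TPM) led again, with Stat2 (5.44 ± 0.623 TPM; SD, n = 4), Irf1 (5.15 ± 0.884 TPM) and Ifi204 (4.12 ± 0.442 TPM) close together below them.

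The receptor chains were highest in proliferating myoblasts and lower, to 0.383 and 0.323 of that level for Ifnar1 and Ifngr1, in WT differentiated myotubes. Ifnar1 (chr16:91485238-91507441, plus strand) is a chain of the type I receptor. In WT it stood at 64.7, 65.7 and 65.5 CPM in myoblasts, 23.9, 25.3 and 25.7 CPM in differentiated myotubes and 25.3, 24.7, 23.1 and 21.1 CPM in fused myotubes. The myoblast libraries did not overlap with those of either later stage, whereas the last 2 stages did overlap. The fitted log2 fold change, for which -1 is a halving, was -1.38 ± 0.0578 (SE) from myoblasts to differentiated myotubes (edgeR adjusted p = 2.76e-18). From differentiated to fused myotubes it was -0.09 ± 0.0622 (edgeR adjusted p = 0.191), and -0.16 with library size only (edgeR adjusted p = 0.0339). The Glud1KO-labelled libraries followed the same course, at 65.5, 64.7 and 61.0 CPM, then 23.0 and 21 CPM, then 25.8, 21.9, 22.3 and 24.1 CPM. Between the labels Ifnar1 passed the test at no stage: the log2 fold change of Glud1KO over WT was -0.03 ± 0.0514 at 24 h, -0.18 ± 0.0764 at 48 h, where the libraries did not overlap (edgeR adjusted p = 0.0834), and -0.00 ± 0.0609 at 72 h. With library size only, the value at 48 h was -0.24 and passed (edgeR adjusted p = 0.0306).

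Ifngr1 (chr10:19591949-19610229, plus strand), the ligand-binding chain for interferon gamma, fell with Ifnar1 but regained a little at fusion. In WT its level was 36.8, 35.0 and 35.2 CPM in myoblasts, 11.7, 11.8 and 11.2 CPM in differentiated myotubes and 14.6, 14.9, 14.3 and 14.9 CPM in fused myotubes. No WT library of any stage overlapped with those of another. The log2 fold change was -1.63 ± 0.0591 to differentiated myotubes (edgeR adjusted p = 1.08e-19), then 0.35 ± 0.0644 to fused myotubes (edgeR adjusted p = 2.44e-05). In TPM the WT ranges of these last 2 stages, 9.03 to 9.75 and 9.56 to 10.8, overlapped. Under the Glud1KO label Ifngr1 was at 35.9, 32.8 and 34.3 CPM, 10.5 and 11.2 CPM, and 17.9, 15, 16.9 and 16.1 CPM. In fused myotubes all 4 of those libraries lay above the 4 of WT, with a log2 difference of 0.17 ± 0.0591 that did not pass the test (edgeR adjusted p = 0.064). It passed with a mean CPM of at least 1 (0.17, edgeR adjusted p = 0.0455) and without Glud1KO replicate 2 (0.21, edgeR adjusted p = 0.0284).

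**Figure D1:**
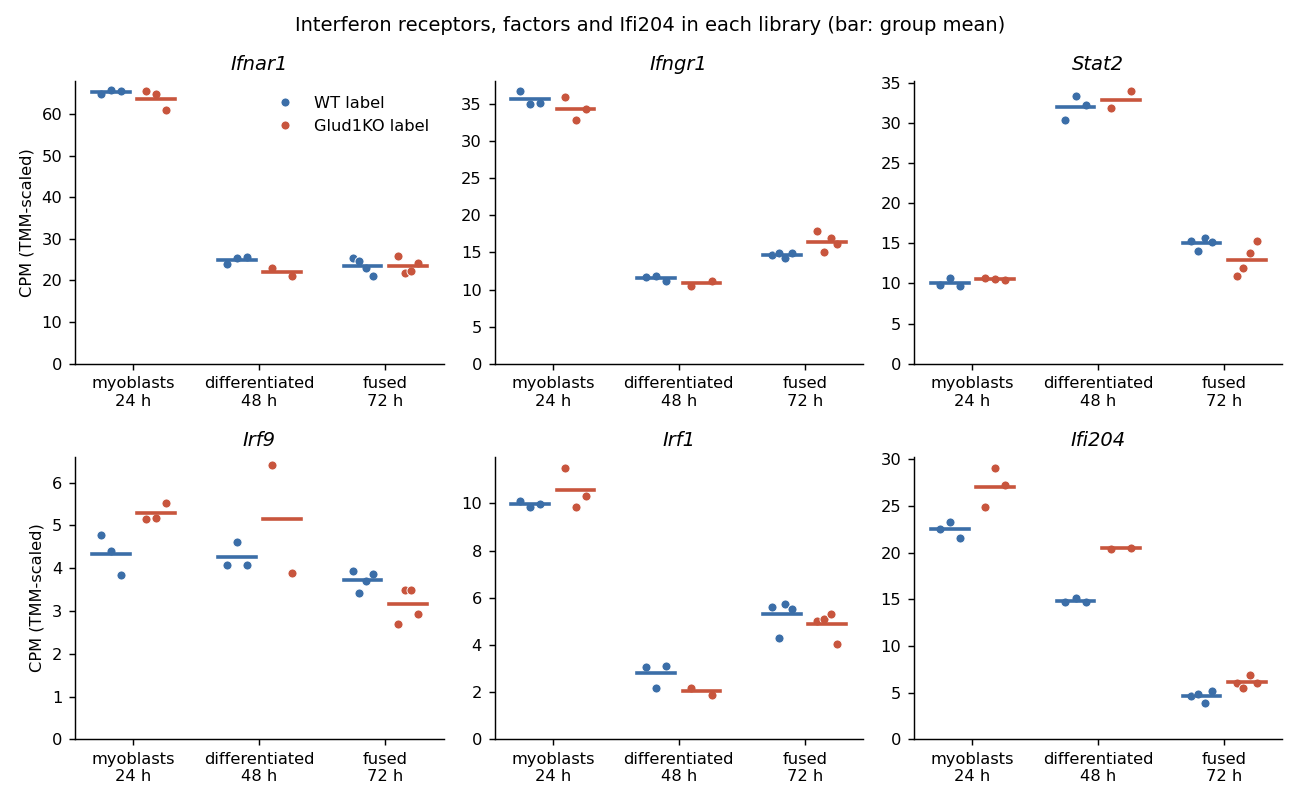
TMM-scaled CPM (y axis, from 0) of the 6 members expressed above 1 CPM, by stage (x axis) and label (colour), with 1 point for each library and a bar at the group mean. Ifnar1, Ifngr1 and Irf1 are highest in myoblasts, Stat2 peaks in differentiated myotubes, and Ifi204 declines over both steps while its Glud1KO-labelled points lie above the WT points at each stage.

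The factors that act below the type I receptor did not move as a unit. Stat2 (chr10:128270559-128292849, plus strand), a factor of type I and type III signalling, tripled between myoblasts and differentiated myotubes. Its WT libraries stood at 9.77, 10.7 and 9.73 CPM in myoblasts, 30.4, 33.4 and 32.2 CPM in differentiated myotubes, and 15.3, 14.0, 15.7 and 15.2 CPM in fused myotubes. The 3 stages did not overlap, and the peak was at 48 h. The log2 fold change was 1.67 ± 0.0758 for the rise (fold 3.19, edgeR adjusted p = 1.79e-17) and fell by 1.09 ± 0.0692 from there to fused myotubes (edgeR adjusted p = 9.46e-14). Fused myotubes remained above myoblasts by 0.59 ± 0.0801 on this scale (edgeR adjusted p = 1.62e-07), but their TPM (4.77 to 6.19) overlapped with that of myoblasts (4.59 to 5.47), and with an effective-length offset the difference was 0.34 (edgeR adjusted p = 0.0234).

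Under the Glud1KO label Stat2 was at 10.7, 10.6 and 10.4 CPM in myoblasts, 31.8 and 34.0 CPM in differentiated myotubes, and 10.9, 11.9, 13.8 and 15.3 CPM in fused myotubes. The peak at 48 h was thus present under both labels, and the fused libraries were more spread under Glud1KO than under WT, with 3 of the 4 below every WT library. The log2 difference between the labels was 0.08 ± 0.0839 at 24 h, 0.04 ± 0.0764 at 48 h and -0.22 ± 0.0762 at 72 h, the last with an edgeR adjusted p of 0.0584. Without replicate 4 of the Glud1KO-labelled fused myotubes, the library at 15.3 CPM, that difference was -0.29 (edgeR adjusted p = 0.00931). It also passed without WT replicate 2 (-0.25, edgeR adjusted p = 0.0452) and without a filter (-0.22, edgeR adjusted p = 0.0457), and over all alternatives its adjusted p lay between 0.00931 and 0.381.

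Irf9 (chr14:55603571-55610030, plus strand), which gives the complex with Stat2 its DNA contact, varied little among the WT libraries, from 3.43 to 4.78 CPM, and more under Glud1KO, from 2.70 to 6.42 CPM. Its WT levels were 4.78, 4.41 and 3.84 CPM, then 4.08, 4.61 and 4.08 CPM, then 3.93, 3.43, 3.70 and 3.87 CPM. The myoblast libraries overlapped with both later stages, whereas the differentiated ones lay just above the fused ones. The stage differences of -0.03 ± 0.139 to differentiated myotubes and -0.18 ± 0.140 on to fused myotubes did not pass the test (edgeR adjusted p = 0.855 and 0.246), nor did that from myoblasts to fused myotubes, -0.21 ± 0.137 (edgeR adjusted p = 0.157). With libraries scaled by size only, the last was -0.53 (edgeR adjusted p = 0.00115), on a scale where the median of all genes was -0.33. With the trend of each library with GC content and length removed, the first of the 3 became 0.36 (edgeR adjusted p = 0.019), on a scale where the median of all genes was also at 0.35. Under Glud1KO the levels were 5.16, 5.17 and 5.53 CPM, 6.42 and 3.88 CPM, and 2.70, 3.50, 3.49 and 2.93 CPM. In myoblasts these lay above all WT libraries, with a log2 difference of 0.28 ± 0.130 (edgeR adjusted p = 0.168). The pair of Glud1KO-labelled differentiated libraries stood apart from each other, and without the lower one, replicate 2, the difference there was 0.59 in place of 0.27 ± 0.161 (edgeR adjusted p = 0.0122 in place of 0.234). Irf9 overlaps Rnf31, a ubiquitin ligase gene on the same strand at 11.3 to 16 CPM, so reads of the shared stretch could be assigned to either gene.

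Irf1 (chr11:53770014-53778374, plus strand), an early target of interferon gamma that in turn activates antigen presentation genes, ran opposite to Stat2 over the stages. Its WT levels were 10.1, 9.85 and 9.96 CPM in myoblasts, 3.08, 2.18 and 3.13 CPM in differentiated myotubes and 5.62, 4.31, 5.74 and 5.52 CPM in fused myotubes. Here the stages again did not overlap, and the lowest point was at 48 h, where Stat2 had its peak. The log2 fold change was -1.83 ± 0.123 on differentiation (edgeR adjusted p = 1.32e-13) and 0.92 ± 0.132 from there to fusion (edgeR adjusted p = 5.7e-07). Glud1KO-labelled libraries showed 11.5, 9.85 and 10.3 CPM, 2.19 and 1.89 CPM, and 5.02, 5.12, 5.32 and 4.06 CPM. Both labels thus shared the dip. In differentiated myotubes the label difference was -0.46 ± 0.195 (edgeR adjusted p = 0.0848), with 1 WT library, replicate 2, between the Glud1KO pair, and without that library it was -0.61 (edgeR adjusted p = 0.0201). With library size only it was -0.52 (edgeR adjusted p = 0.0479).

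Ifi204 (chr1:173747293-173766943, minus strand) was the one member called between the labels, and it was higher under Glud1KO at all 3 stages. It belongs to the Ifi200 family of interferon-inducible nuclear proteins with DNA-binding HIN domains, and it has been studied in muscle and bone differentiation and in DNA sensing. In myoblasts it stood at 22.5, 23.3 and 21.6 CPM in WT and 24.9, 29.0 and 27.2 CPM under Glud1KO. In differentiated myotubes the levels were 14.7, 15.1 and 14.7 CPM against 20.4 and 20.5 CPM, and in fused myotubes 4.66, 4.82, 3.95 and 5.15 CPM against 6.02, 5.45, 6.94 and 6.06 CPM. At each stage every Glud1KO-labelled library was above every WT library. Of all genes tested, 33%, 46.5% and 15.8% did not overlap between the labels, in either direction, and 4.86%, 11% and 6.32% were called higher at these stages. The summed fibroblast markers stood lower under the same label, and the sum of the 8 leukocyte markers stood higher in its differentiated myotubes, through Itgam. The summed myogenic markers stood lower under it in myoblasts and in fused myotubes, without overlap. The part of these differences in this result was not tested.

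The log2 difference of Ifi204 was 0.26 ± 0.0634 in myoblasts (fold 1.20, edgeR adjusted p = 0.00644). It was 0.46 ± 0.0823 in differentiated myotubes (fold 1.38, edgeR adjusted p = 0.000121) and 0.40 ± 0.0999 in fused myotubes (fold 1.32, edgeR adjusted p = 0.00841). The size of the label difference was not shown to change with stage: it differed by 0.20 between 48 h and 24 h, by -0.07 between 72 h and 48 h and by 0.13 between 72 h and 24 h (edgeR adjusted p = 0.202, 0.796 and 0.567). With the GC and length trend removed, the first of these was 0.35 and passed the test (edgeR adjusted p = 0.0101). Counts of family members with shared sequence can be exchanged in the estimation. With the family summed into 1 feature the label difference was 0.18, 0.27 and 0.29 at the 3 stages (edgeR adjusted p = 0.00581, 0.00143 and 0.0147). The myoblast call was lost without WT replicate 3 (0.24, edgeR adjusted p = 0.0552), without Glud1KO replicate 2 (0.21, edgeR adjusted p = 0.0628) and with an effective-length offset (0.28, edgeR adjusted p = 0.0708). That in fused myotubes was lost without Glud1KO replicate 3 (0.31, edgeR adjusted p = 0.0636).

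Over differentiation Ifi204 fell in 2 steps. The log2 change in WT was -0.60 ± 0.0699 to differentiated myotubes (edgeR adjusted p = 1.1e-08) and -1.66 ± 0.0868 from there to fused myotubes (edgeR adjusted p = 1.31e-15). Of 15 listed genes of its family 5, Ifi204 included, passed the filter. The other 4 had their highest levels in myoblasts. Mndal and Ifi207 reached the level of the filter in myoblast libraries only, and Ifi203 in those and the WT differentiated ones, so the levels of the family are given as a description. From WT myoblasts to fused myotubes Ifi211 went from 35.7 ± 2.02 to 0.979 ± 0.176 CPM and Mndal from 14.1 ± 0.331 to 0.0154 ± 0.0308 CPM (SD, n = 3 and 4). Ifi203 went from 4.33 ± 0.377 to 0.147 ± 0.0683 CPM, and Ifi207 from 0.953 ± 0.0476 to 0.0515 ± 0.103 CPM. Between the labels none of the other 4 was called in myoblasts or fused myotubes. In differentiated myotubes Ifi203 stood at 0.638 ± 0.118 CPM in WT and 0.185 ± 0.0348 CPM under Glud1KO, the latter 3 and 4 counts. It was called lower there (-1.75 ± 0.495), opposite to Ifi204. Only its WT libraries at that stage reached the level of the filter, which favoured the call.

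The 3 classic response genes had few counts in every library, at most 19 for any of them. A floor of 3 counts corresponded to between 0.0859 and 0.2 CPM. Ifit1 (chr19:34640871-34650009, plus strand), which binds foreign RNA 5′ ends, had 14, 7 and 14 estimated counts in the WT myoblast libraries, 6, 2 and 4 in WT differentiated myotubes, and 6, 1, 2 and 8 in WT fused myotubes. Under Glud1KO it had 10, 18 and 16, then 2 and 1, then 5, 3, 5 and 0. Ifit1 thus had its highest group mean in myoblasts under both labels, and the labels overlapped at each stage.

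Ifit3 (chr19:34583531-34588731, plus strand), a relative of Ifit1, had 11, 5 and 19 counts in WT myoblasts, 4, 6 and 4 in WT differentiated myotubes, and 6, 2, 7 and 13 in WT fused myotubes. The Glud1KO-labelled libraries held 17, 10 and 6, then 5 and 2, then 8, 12, 6 and 10. Ifit3 overlapped between the labels at each stage. Isg15 (chr4:156199424-156200818, minus strand), a ubiquitin-like protein attached to other proteins during the response, had 10, 5 and 8 counts in WT myoblasts, 1, 0 and 1 in WT differentiated myotubes, and 3, 2, 1 and 0 in WT fused myotubes. Under Glud1KO its counts were 11, 9 and 8, then 2 and 5, then 2, 0, 1 and 1. Isg15 was highest in myoblasts under both labels, and its labels did not overlap in differentiated myotubes, where the 3 WT libraries and 1 of the 2 Glud1KO-labelled ones were under the floor. It did not pass the filter. In the fit without a filter, its log2 change in WT was -3.18 ± 0.879 from myoblasts to differentiated myotubes (edgeR adjusted p = 0.000696) and -1.84 ± 0.703 from myoblasts to fused myotubes (edgeR adjusted p = 0.0176), both past the threshold. The size of such a change is not well defined, because it is fitted to later libraries of 0 to 3 counts.

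**Figure D2:**
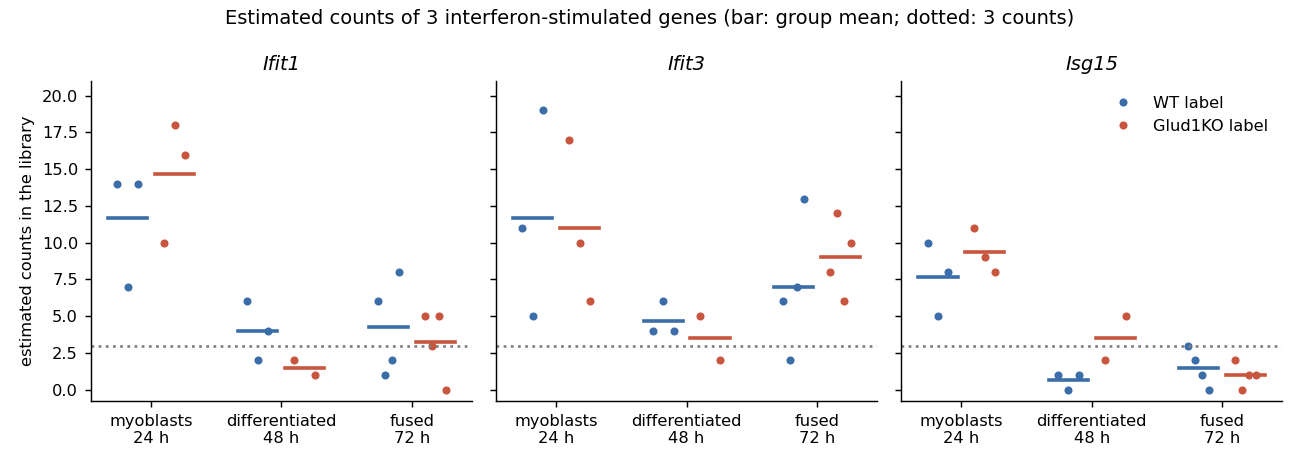
Estimated counts (y axis) of Ifit1, Ifit3 and Isg15 in each library, by stage (x axis) and label (colour), with a bar at the group mean and a dotted line at 3 counts. No library holds more than 19 counts of any of them, and Ifit1 and Isg15 have their highest group means in myoblasts under both labels.

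No difference between the labels passed the test for Ifit1, Ifit3 or, without a filter, Isg15. For Ifit1 the log2 difference was 0.11 ± 0.417 at 24 h, -1.02 ± 0.956 at 48 h and -0.26 ± 0.602 at 72 h, and that of Ifit3 was -0.31 ± 0.444, -0.06 ± 0.770 and 0.49 ± 0.445. The edgeR adjusted p of these 6 values lay between 0.483 and 0.969. For Isg15 in the fit without a filter it was 0.05 ± 0.547 at 24 h, 2.52 ± 1.09 at 48 h, where the labels did not overlap, and -0.44 ± 0.969 at 72 h (edgeR adjusted p = 1, 0.12 and 0.965). Between WT stages, Ifit1 had a mean of 0.421 ± 0.103 CPM in myoblasts, 0.171 ± 0.102 CPM in differentiated and 0.198 ± 0.125 CPM in fused myotubes (SD, n = 3, 3 and 4). It reached the level of the filter in 4 libraries, all of myoblasts, so its call as lower in WT differentiated myotubes than in WT myoblasts (-1.34 ± 0.541, edgeR adjusted p = 0.0247) was favoured by the filter. Without a filter the value was -1.40 (edgeR adjusted p = 0.0191). The call was lost under 6 alternatives: without WT myoblast replicate 1 or 3, without WT differentiated replicate 2 or 3 (edgeR adjusted p = 0.069, 0.0616, 0.0968 and 0.0806), with the DESeq2 test (-1.30, DESeq2 adjusted p = 0.057) and with the GC and length trend removed (-0.89, edgeR adjusted p = 0.126). Ifit3 differed by -1.11 ± 0.530 between the same stages and did not pass the test (edgeR adjusted p = 0.0534, and 0.019 to 0.317 over its alternatives). When the paralogs Ifit1bl1 and Ifit1bl2 were summed with Ifit1, the sign of the Ifit1 value turned, to 1.56 (edgeR adjusted p = 1.91e-06). Ifit1bl1 and Ifit1bl2 stood at 0.0378 and 0.0144 CPM in WT myoblasts and at 0.755 and 0.502 CPM in WT differentiated myotubes. Ifit2, a relative singled out after its values were seen, stood well above both per length, at 9.56 ± 0.962 TPM in WT myoblasts and 5.65 ± 0.223 TPM in WT differentiated myotubes (SD, n = 3).

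Across the 9 members, 8 were tested between the labels, and 1 of the 8 was higher and 0 were lower under Glud1KO at each stage. Of all genes tested, 4.86% were higher and 6.69% lower in myoblasts (11.6% in both directions), 11% and 14.1% in differentiated myotubes (25.2%), and 6.32% and 6.72% in fused myotubes (13%). In both directions together, 1 of 8 is close to the background in myoblasts and fused myotubes and below it in differentiated myotubes. The median log2 difference of the 8 was 0.08, -0.07 and -0.06, against 0.01, -0.01 and -0.01 over all genes. Libraries of the labels did not overlap for 2 of the 8 at each stage, Ifi204 with Irf9 in myoblasts, with Ifnar1 in differentiated myotubes and with Ifngr1 in fused myotubes. Of all genes tested, 33%, 46.5% and 15.8% did not overlap at these stages, so 2 of 8 is below that share at the first 2 stages and above it at the third. Isg15, the member that did not pass the filter, did not overlap in differentiated myotubes either, at 0 to 1 counts against 2 and 5. The label effect was called different between stages for 0 of the 8, although single alternatives gave such a call for Irf1, Irf9, Stat2, Ifngr1 and Ifi204. Of all genes, 19.1% were called for differentiated myotubes against myoblasts (7.78% higher, 11.3% lower), 14.8% for fused against differentiated myotubes (8.27% higher, 6.53% lower) and 10.3% for fused myotubes against myoblasts (5.75% higher, 4.55% lower).

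**Figure D3:**
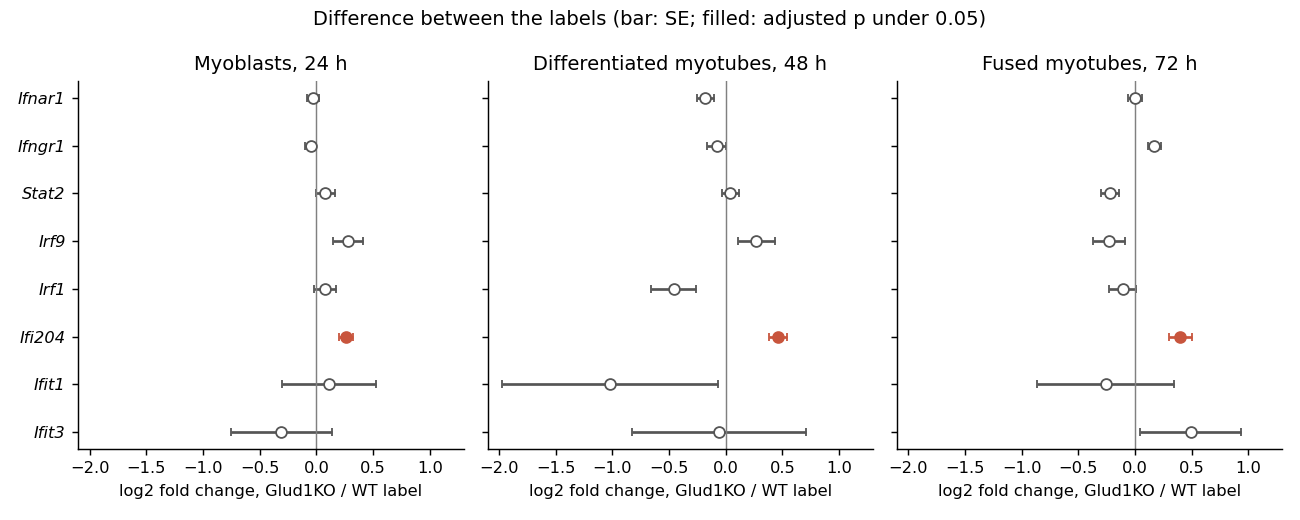
Log2 fold change of Glud1KO-labelled over WT-labelled libraries (x axis) for the 8 members tested (y axis), in 1 panel for each stage, with bars of 1 SE and filled points where the adjusted p was under 0.05. Only Ifi204 is filled, at 0.26, 0.46 and 0.40, and the bars of Ifit1 and Ifit3 are the widest.

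Over the WT stages, calls were common among the members as they were among all genes. From myoblasts to differentiated myotubes 1 member was higher (Stat2) and 5 were lower (Irf1, Ifnar1, Ifngr1, Ifi204 and Ifit1, the last with the limits given above), where 42.4% of all genes tested were higher and 42.6% lower (85% in all). From differentiated to fused myotubes 2 were higher (Irf1 and Ifngr1) and 2 lower (Stat2 and Ifi204), against 37.4% and 37.7% (75.1%). From myoblasts to fused myotubes 1 was higher (Stat2) and 4 lower (Irf1, Ifnar1, Ifngr1 and Ifi204), against 42.2% and 43.4% (85.5%). When libraries were scaled by their size alone, the median over all genes was -0.23 for the first and -0.33 for the last of these, and with the GC and length trend removed it was 0.35 and 0.36. The changes of Stat2, Irf1, Ifnar1, Ifngr1 and Ifi204 kept their direction and their call under each of these.

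Around the members, the ligands themselves were not detected at a level that could be tested. Of 12 interferon genes listed (Ifnb1, 6 alpha interferons, Ifne, Ifnk, Ifng, Ifnl2 and Ifnl3), 10 had 0 counts in all 19 libraries. Ifng had 6 counts in all and Ifne 4, with at most 2 in a library, which is under the floor. The receptor and kinase list was expressed in full: all 9 genes were tested, and 8 had a mean of at least 1 CPM in every group. Between the labels it had 1 lower in myoblasts, 1 higher and 1 lower in differentiated myotubes and 1 higher in fused myotubes, where 11.6%, 25.2% and 13% of all genes tested were called in either direction. Those were Jak1, a kinase shared by both receptors, at -0.15 ± 0.0416 in myoblasts and -0.31 ± 0.0560 in differentiated myotubes, and Ifngr2, the partner chain of Ifngr1, at 0.33 ± 0.0589 in differentiated and 0.23 ± 0.0440 in fused myotubes (edgeR adjusted p = 0.0213, 0.000169, 0.000144 and 0.000804). With an effective-length offset 0, 0 and 1 of these genes were called. In WT, Ifngr2 rose where Ifngr1 fell, from 18.8 ± 0.724 CPM in myoblasts to 28.1 ± 1.32 and 39.3 ± 0.992 CPM.

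Among 12 STAT and IRF factors, 10 were tested and 3, 4 and 3 were lower under Glud1KO at the 3 stages, with 0 higher. Of all genes tested, 6.69%, 14.1% and 6.72% were lower and 4.86%, 11% and 6.32% higher. Stat3, which answers mainly to other cytokines, was lower at all 3 stages, at 34.7 ± 1.61 against 44.0 ± 1.19 CPM in myoblasts, 88.1 ± 0.925 against 100 ± 2.89 CPM in differentiated myotubes and 147 ± 0.628 against 168 ± 11.2 CPM in fused myotubes. Irf2, an antagonist of Irf1, was lower in myoblasts (-0.30 ± 0.0671) and fused myotubes (-0.27 ± 0.0753). With the effective-length offset the counts of lower factors became 0, 2 and 0.

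Of 7 inhibitors of the pathway 6 were tested. Socs1, a feedback inhibitor of Jak kinases, was higher under Glud1KO in myoblasts (0.45 ± 0.137, edgeR adjusted p = 0.0332) and lower in differentiated myotubes (-0.69 ± 0.252, edgeR adjusted p = 0.0447). The phosphatase gene Ptpn1 was lower in myoblasts (-0.19 ± 0.04) and Socs3 in fused myotubes (-0.61 ± 0.176), which gave 1 higher and 1 lower, 0 and 1, and 0 and 1 over the stages. Of all genes tested, 4.86% were higher and 6.69% lower, 11% and 14.1%, and 6.32% and 6.72%. With an effective-length offset the counts of inhibitors were 0 and 0, 0 and 1, and 0 and 0. Of 12 nucleic acid sensing genes 10 were tested, and 1, 0 and 1 were higher with 0 lower, beside the same shares of all genes. Dhx58, a regulator of RNA sensing, was the one at both stages, at 0.685 ± 0.208 against 0.336 ± 0.0623 CPM in myoblasts (1.02 ± 0.328, edgeR adjusted p = 0.0423) and 1.80 ± 0.367 against 0.857 ± 0.163 CPM in fused myotubes (1.04 ± 0.233, edgeR adjusted p = 0.00308). In differentiated myotubes it stood on the other side, at 0.159 ± 0.0771 against 0.316 ± 0.0866 CPM, without overlap, and did not pass the test (-0.97 ± 0.588, edgeR adjusted p = 0.247). With the effective-length offset 0 of these sensing genes were called.

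The wider set of antiviral effectors was expressed unevenly. Of 46 listed, 12 had a mean of at least 1 CPM in every group, 20 stayed under 1 CPM in every group and 2 had no count in any library. Of the 31 tested, 0 were higher and 2 lower under Glud1KO in myoblasts, 1 higher and 7 lower in differentiated myotubes, and 0 higher and 1 lower in fused myotubes, where 6.69%, 14.1% and 6.72% of all genes tested were lower. Ifitm3, a membrane protein that blocks virus entry, was lower in differentiated myotubes (3.02 ± 0.118 against 6.88 ± 1.41 CPM, -1.17 ± 0.176, edgeR adjusted p = 1.32e-05) and in fused myotubes (3.89 ± 0.881 against 6.39 ± 0.768 CPM, -0.72 ± 0.134, edgeR adjusted p = 0.000461). Adar, an RNA-editing enzyme, was lower in differentiated myotubes (-0.39 ± 0.123), and Lgals3bp in myoblasts (-0.50 ± 0.166). Trim25, a ubiquitin ligase of RNA sensing, was lower in myoblasts (-0.17 ± 0.0545) and higher in differentiated myotubes (0.24 ± 0.0561). It also made up the calls of the Isg15 conjugation list, of which 4 of 6 genes were tested. With an effective-length offset, 0 effectors were higher and 0 lower in myoblasts, 1 and 4 in differentiated myotubes and 0 and 1 in fused myotubes.

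Antigen presentation genes are a set that Irf1 and interferon gamma act on. Of 17 listed with interferon-induced chemokines, 9 were tested, with 0 higher and 7 lower in myoblasts, 1 higher and 4 lower in differentiated myotubes and 1 higher and 2 lower in fused myotubes. Lower calls also outnumbered higher ones over all genes tested, at 6.69% against 4.86%, 14.1% against 11% and 6.72% against 6.32%. Tap2, a subunit of the peptide transporter, was lower at each stage, at 12.1 ± 0.329 against 39.3 ± 1.76 CPM, 14.4 ± 0.957 against 44.4 ± 3.37 CPM and 26.4 ± 1.47 against 64.4 ± 2.16 CPM. Its partner Tap1 stood at 12.9 ± 0.557 against 20 ± 0.953 CPM, 0.849 ± 0.237 against 3.74 ± 0.503 CPM and 2.18 ± 0.585 against 3.48 ± 0.214 CPM, and was called lower at each stage too. Psmb9, a subunit of the immunoproteasome, was lower in myoblasts (0.314 ± 0.0696 against 1.18 ± 0.278 CPM). The class I heavy chain H2-K1 was lower in myoblasts and higher in differentiated myotubes (0.37 ± 0.0578). H2-D1, another class I heavy chain, was lower in both, at -0.20 ± 0.0565 and -0.98 ± 0.11 (edgeR adjusted p = 0.0221 and 1.6e-07). B2m, the light chain, was lower in myoblasts (-0.14 ± 0.0387) and higher in fused myotubes (0.16 ± 0.0389). Irf1 itself passed the test between the labels at none of these stages. In differentiated myotubes it stood at -0.46 ± 0.195 (edgeR adjusted p = 0.0848) and passed under 2 alternatives. The part of Irf1 in these levels was not tested. With the effective-length offset the higher counts were 0, 0 and 1 and the lower counts 3, 4 and 1.

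Of 7 immunity-related GTPases, which interferon gamma induces, 5 were tested and 2, 2 and 1 were lower under Glud1KO at the 3 stages, with 0 higher, where 6.69%, 14.1% and 6.72% of all genes tested were lower. With the effective-length offset 2, 1 and 1 were lower. Irgm1, which acts on vacuoles that hold microbes, was lower at all 3 stages, at 7.20 ± 0.203 against 10.7 ± 2.01 CPM, 2.15 ± 0.292 against 4.92 ± 0.624 CPM and 14.1 ± 1.52 against 18.3 ± 2.21 CPM. Ifi47, another of them, was lower in myoblasts (1.03 ± 0.0942 against 2.19 ± 0.277 CPM). The 6 guanylate-binding proteins of chromosome 5 were lower at each stage, with Gbp6 at 39.0 ± 1.75 against 783 ± 22.9 CPM in fused myotubes. Only 1 of the 5 guanylate-binding proteins of chromosome 3, which are also interferon targets, passed the filter, and it was not called between the labels.

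**Figure D4:**
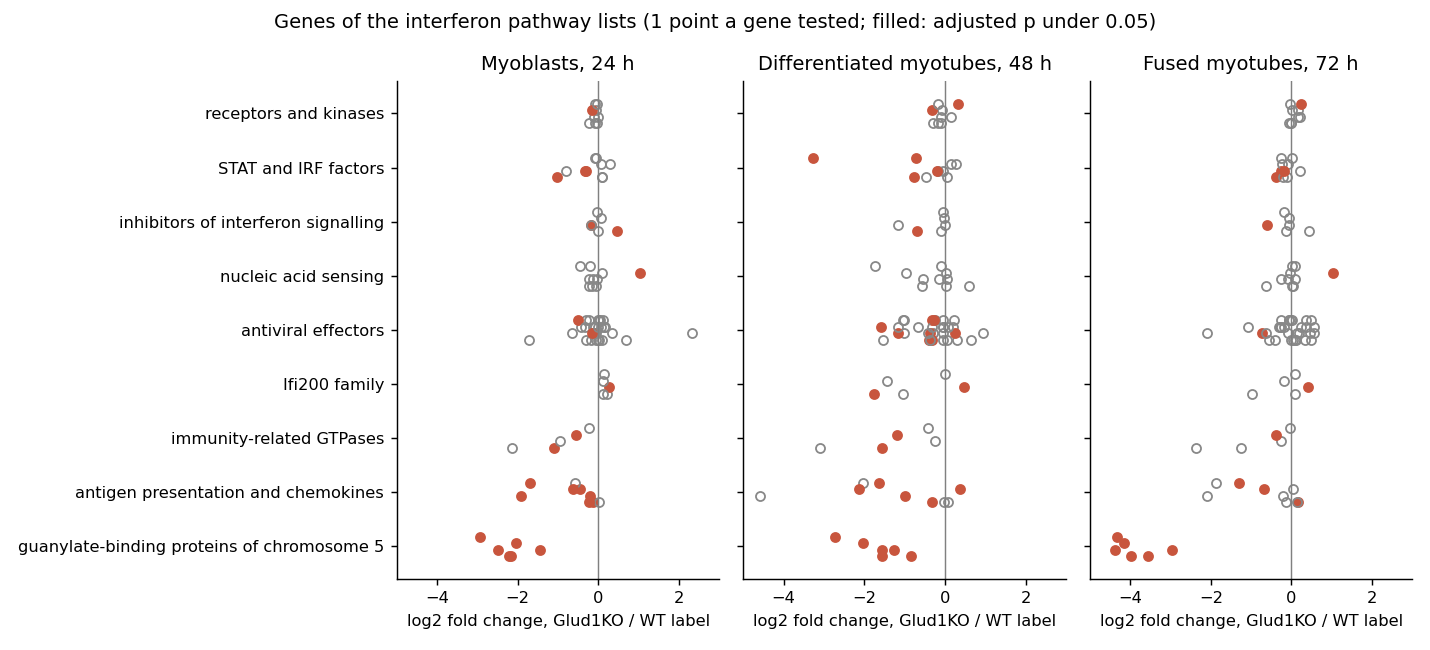
Log2 fold change of Glud1KO-labelled over WT-labelled libraries (x axis) for each tested gene of 9 interferon pathway lists (y axis), in 1 panel for each stage, filled where the adjusted p was under 0.05. The 6 guanylate-binding proteins of chromosome 5 are filled and lower in every panel, most points of the receptor and antiviral lists are open, and the filled point of the Ifi200 family on the higher side is Ifi204.

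The genes whose log2 CPM followed each member most closely over the 19 libraries are given as a description, since all libraries share the large change with stage. Stat2 was most like Utp14b (Pearson r = 0.989) and the non-coding Gm28653 (0.986). Irf1 was most like Atg7 (0.988), an autophagy enzyme, and Anxa6 (0.985), a membrane-binding annexin. Ifnar1 followed Casp8 (0.997) and Mta1 (0.996), and Ifngr1 followed Mars (0.995), a methionyl-tRNA synthetase, and Gpx1 (0.993), a glutathione peroxidase. Ifi204 was closest to Rrm1 (0.990), a subunit of ribonucleotide reductase, which makes DNA precursors in dividing cells, and to Sytl2 (0.989). For Irf9 the highest values were lower, at 0.896 for 1600002K03Rik and 0.878 for Mterf1a.

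Estimated counts were also divided among the transcripts of each member, and how firmly this was done differed between genes. Ifit1, Ifit3 and Isg15 have 1 annotated transcript each. Ifngr1 and Ifi204 drew nearly all counts from 1 transcript: a transcript of 2112 bases held group means of 95.0% to 99.6% in Ifngr1, and one of 2296 bases held 91.0% to 98.5% in Ifi204. The Stat2 transcript of 4394 bases held 88.7% to 96.6%. For Ifnar1 the 3909-base transcript held 89.5% ± 1.38 (SD, n = 3) of the counts in WT myoblasts and 77.0% ± 7.01 (SD, n = 4) in WT fused myotubes. Irf1 had a 2137-base transcript at 80.1% ± 7.45 in WT and 61.7% ± 10.3 in Glud1KO-labelled fused myotubes, with ranges of 69.6% to 87.3% and 52.1% to 71.7% that overlapped. Counts of Irf9 were split among 3 transcripts in shares that differed widely between replicates, such as 16.5% to 92.4% for the one of 2343 bases in WT fused myotubes, so no transcript of Irf9 was compared.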

How the data were processed

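RNA was measured in 19 libraries, 1 deposited file each, made with an RNeasy Plus Micro and an Illumina TruSeq mRNA kit per the labels. The authors deposited estimated counts, TPM and effective lengths for 121843 transcripts, in the kallisto layout per the file headers, and the effective lengths entered 1 alternative only. The submitters' processing notes name bcl2fastq 2.20, fastp 0.20.0, kallisto 0.46.1, edgeR 3.36 and build GRCm38.p6, with no order. kallisto shares a read among the transcripts it matches, so copies of a gene can exchange counts. The annotation release and the use of strand are not given in the sources used here. Transcripts were matched to GENCODE M21 (121018 matched; the other 825 held 0.255% to 0.507% of the counts and were left out), summed to 35598 genes and rounded.

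Counts were fitted with edgeR 4.0.16 (quasi-likelihood test, TMM scaling, filterByExpr) in R 4.3.3, with all 19 libraries and 1 coefficient for each of 6 groups, so that groups share an estimate of spread (common biological coefficient of variation 4.03%). P-values were adjusted over the 15123 genes tested (Benjamini-Hochberg), with calls under 0.05. TPM was used for levels only. The scripts were tested on simulated data. Replicate pairs differed by more than sampling noise (chi-square per degree of freedom 2.14 to 7.66). Floors of 3 counts cover counting error only. The members, the 12 lists and the motifs were chosen with earlier results of these data known. Genes named from a list were, for a stage, those called with the 2 highest and the 2 lowest log2 values, given group levels that did not overlap and averaged 1 CPM or more in 1 group. Genes with the same call in all 3 stages were named too, and H2-D1 was named beside H2-K1 outside this rule. For likeness it names the 2 genes with the highest r. Alternatives were DESeq2 1.42.0 (its size factors and its test), library size only, no filter, mean CPM of at least 1, only the libraries compared, a replicate block, an effective-length offset, paralogs summed, each library left out, and, chosen after seeing the data, a GC and length trend removed. The Ifi204 promoter and protein sequences are not used here. A few results on single genes of the lists are not reported here.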

Additional observations from a re-analysis of the deposited data

Results flagged for a closer look

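In WT fused myotubes, Irf1 in replicate 2, at 4.31 CPM, lay apart from the other 3 libraries at 5.52 to 5.74 CPM, with a gap of 0.85 of the whole range of the group. It was the 1 such case among 18 groups of values examined, and chance alone gives about 1 in 20 groups.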

How the results depend on the processing

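The 8 tested members gave 72 values over 9 comparisons, and 1296 alternative values of these were computed. Of these, 1250 kept their direction or stayed uncalled on the same side of the threshold, 10 lost the call, 32 gained it and 4 turned sign where a value was called. The 4 were Ifit1 with paralogs summed, at 0.66 between the labels in differentiated myotubes, 1.56 for WT differentiated myotubes against myoblasts and 2.91 for WT fused myotubes against myoblasts, and Irf9 with the GC and length trend removed, at 0.36 for WT differentiated myotubes against myoblasts. For Ifit1 the sum is led by paralogs that are higher than Ifit1 in myotubes. For Irf9 the removal of the trend moved the median of all genes to 0.35 as well, so its turn is no change relative to other genes. Ifit1 and Ifit3 are limited by depth, with at most 19 counts in a library.

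The number of genes called moved most with the effective-length offset. Between the labels it was 589 in place of 1747 in myoblasts, 2140 in place of 3810 in differentiated myotubes and 819 in place of 1972 in fused myotubes. For the differences between stages it was 1457 in place of 2890, 978 in place of 2238 and 663 in place of 1557 (differentiated myotubes against myoblasts, fused against differentiated myotubes, fused myotubes against myoblasts). In myoblasts it was 2625 with only the libraries compared. Leaving out 1 library gave 925 to 1337 genes in myoblasts, 2594 to 3634 in differentiated and 1384 to 1957 in fused myotubes, and 2076 to 2730, 1543 to 2237 and 1052 to 1554 for the 3 differences. Where this left 1 library in a group, its spread was taken to be that of the other groups.

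The number of members called between the labels was 1 at each stage. It became 0 in myoblasts with the effective-length offset, 3 in differentiated myotubes with library size only and 2 with paralogs summed, and 2 in fused myotubes without a filter or with a mean CPM of at least 1. With 1 library left out it was 0 to 1, 1 to 2 and 0 to 2, and over the WT stages 5 to 7, 4 to 4 and 5 to 6. For the 3 differences between stages it was 0, and 0 to 1 with 1 library left out. It became 1 for the first and the second with library size only and with the GC and length trend removed, and 1 for fused myotubes against myoblasts with DESeq2 size factors, a mean CPM of at least 1, only the libraries compared, or the GC and length trend removed. The cause of these moves was not tested.

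Same-numbered libraries of different groups did not deviate together (r from -0.0896 to 0.0975 over 41 pairs, 0 over 0.1), so no pairing by number was seen. In groups this small a weak pairing could go unseen. A replicate block gave 1666, 3667 and 1858 genes between the labels, with 1 member at each stage. It gave 12811, 11174 and 12774 genes with 6, 4 and 5 members over the WT stages, and 2812, 2148 and 1512 genes with 0 members for the differences.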
